A study of Homo sapiens with 12 samples.

Results

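This experiment compared 22Rv1 cells given siRNA against ETS1 with the control cells of the same experiment, and it was chosen by those labels alone: 6 of the 12 libraries of the series, 3 of each kind. 22Rv1 is an established human prostate cancer cell line that grew out of a xenograft tumour. All groups were grown in RPMI-1640 with fetal bovine serum, and no group differs from its control in the labels by anything but the siRNA. The other 6 libraries hold siRNA against ZNF783, a zinc finger protein, and a separate set of controls. The study asked how RB in its phosphorylated form acts on ETS1 and on the response to CDK4/6 inhibitors. The sources used here give neither the siRNA sequences nor the time between transfection and harvest. The labels do not name separate cultures, and the p-values therefore describe the spread between these libraries, which could be technical.

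ETS1 is the founding member of the ETS family of transcription factors, which bind DNA sites built around a GGAA core and of which many act downstream of RAS and ERK signalling. RB and its relatives, the pocket proteins, hold back E2F factors until the cyclin D kinases CDK4 and CDK6 phosphorylate them, and genes of DNA replication then switch on. In epithelial tumours ETS1 is best known for inducing proteases, integrins and other genes of invasion. An siRNA directs the Argonaute complex to cut a matching mRNA, so the level of the targeted transcript is the first value to look at.

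The transcript of ETS1 was hardly counted in any library. ETS1 (ENSG00000134954) had 0, 3 and 0 reads in ETS1 siRNA replicates 1 to 3 and 0, 1 and 0 reads in control replicates 1 to 3. The upper 95% limits that these counts allow (exact Poisson, counting error only) were 0.161, 0.179 and 0.107 CPM (counts scaled to a common library total) with siRNA and 0.123, 0.187 and 0.0879 CPM in the controls. Because the controls were already at or below the floor of 3 counts, no fold could be given. Whether the siRNA lowered ETS1 cannot be read from these libraries, and the name ETS1 siRNA below is that of the label.

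Replicate 1 of the ETS1 siRNA lay apart from its 2 partners, and results are therefore given with and without it. The 6 libraries held 22958421 to 48996691 counts, with the fewest in that library. Per degree of freedom, the chi-square of its counts was 40.3 against replicate 2 and 38.9 against replicate 3, while replicates 2 and 3 gave 1.82 and the controls 1.88 to 2.93 among themselves. The ratio of each library to the mean of the controls also followed the GC content of the transcripts (11801 genes). In the decile of genes with the lowest GC content the median log2 ratio was 0.322, 0.109 and 0.0875 in siRNA replicates 1 to 3, and in the decile with the highest it was -0.468, -0.11 and -0.12. All 3 siRNA libraries thus sloped the same way, replicate 1 most steeply, and the controls lay between -0.0317 and 0.0479 in both deciles. The rank correlation of the ratio with GC content (Spearman) was -0.604, -0.521 and -0.489 in siRNA replicates 1 to 3. In control replicates 1 to 3 it was -0.0151, -0.465 and 0.415, so the controls differed among themselves with GC content too. Each control is part of the mean it is divided by, and the siRNA libraries are not. Opposite signs and ratios near 0 among the controls follow in part from that. Transcript length moved too: the median log2 ratio of the shortest decile was -0.301, -0.0702 and -0.0606 in the siRNA libraries, and that of the longest decile 0.2, 0.0401 and 0.0309. The part of GC content and length in the results below was not tested, and counts after a correction of each library for both are given beside those of the gene lists.

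**Figure D1:**
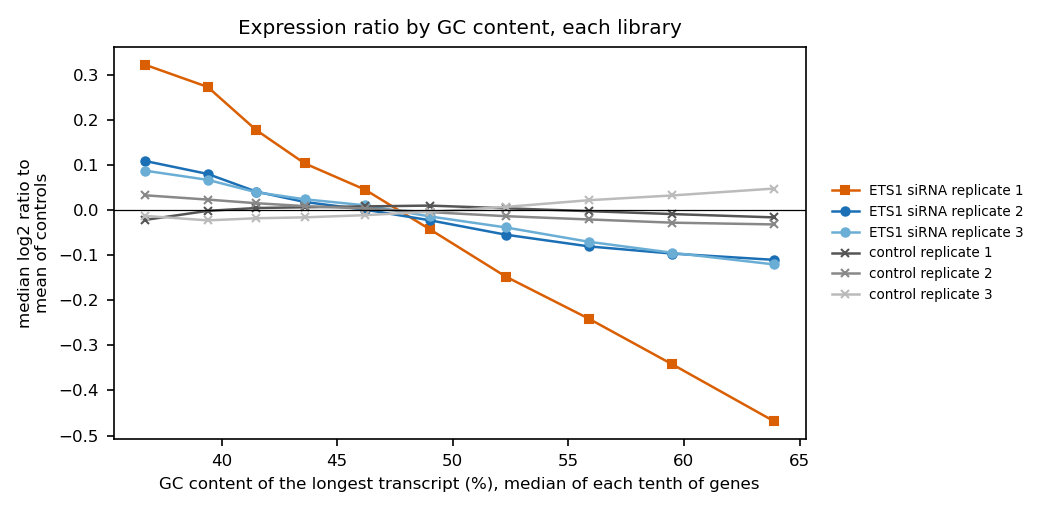
Median log2 ratio of each library to the mean of the 3 controls (y axis) in deciles of genes ordered by GC content of the longest transcript (x axis, percent); lines are libraries. The line of ETS1 siRNA replicate 1 runs from 0.322 down to -0.468, and those of replicates 2 and 3 from 0.109 and 0.0875 down to -0.11 and -0.12. The controls, which make up the mean, stay near 0.

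With all 6 libraries, 5 genes rose and 4 fell. Of 19542 genes tested with edgeR's quasi-likelihood test (Benjamini-Hochberg adjustment over all of them, called at an adjusted p below 0.05), 0.0461% were called, 0.0256% higher and 0.0205% lower. An unadjusted p under 0.05 was found for 3535 genes. The highest siRNA library lay below the lowest control, or the reverse, for many more genes: 3419 were higher without overlap (17.5%) and 3486 lower (17.8%). None of the 9 changed by 2-fold or more, and each kept its direction in all 19 alternative settings and its call in 10 or 11 of them, with adjusted p-values of up to 0.498. DESeq2 called 734 genes on the same libraries, and leaving out any single library other than siRNA replicate 1 left 0 called, with 1775 to 3851 at an unadjusted p under 0.05 (edgeR).

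Among the 9 are genes of adhesion and the cell cortex. Levels are CPM scaled by the trimmed mean method (TMM), and changes are log2 fold changes, siRNA over control, with their standard error (SE). MARCKSL1, which binds actin and membranes, stood at 116, 121 and 113 CPM in ETS1 siRNA replicates 1 to 3 and at 190.1, 189 and 189 CPM in control replicates 1 to 3. The 3 siRNA values lie close together and far below the controls (log2 change -0.70, SE 0.051, adjusted p = 0.0363). CRIP2, whose LIM domains place it in the cytoskeleton and nucleus, stood at 59.6, 73.7 and 72.0 CPM with siRNA and at 128, 127 and 138 CPM in the controls (log2 change -0.93, SE 0.091, adjusted p = 0.0426). Its lowest value is that of replicate 1, and the groups do not overlap. ITGA5, the alpha subunit of the fibronectin receptor, measured 58.1, 60.9 and 59.8 CPM against 89.4, 86.0 and 86.2 CPM (log2 change -0.55, SE 0.054, adjusted p = 0.0426), and here replicate 1 lies with the others. DCBLD2, a neuropilin-like membrane receptor, was higher, at 49.3, 48.9 and 50.3 CPM against 31.7, 33.2 and 30.7 CPM (log2 change 0.64, SE 0.061, adjusted p = 0.0426).

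The other 5 are enzymes, a kinase and a trafficking factor. DIO2 makes active thyroid hormone from its precursor, and stood at 22.3, 19.1 and 18.4 CPM with siRNA and at 10.3, 10.5 and 10.1 CPM in the controls (log2 change 0.95, SE 0.093, adjusted p = 0.0426). It has the largest fold of the 9. CDK14, a kinase that pairs with cyclin Y at the membrane and promotes Wnt signalling, stood at 101, 94.5 and 93.9 CPM with siRNA and at 61.3, 60.1 and 57.9 CPM in the controls (log2 change 0.69, SE 0.059, adjusted p = 0.0426). GFPT1, the entry enzyme of the hexosamine pathway, measured 242, 247 and 247 CPM against 171, 176 and 169 CPM (log2 change 0.51, SE 0.047, adjusted p = 0.0426). BLOC1S6, a subunit of a complex that builds lysosome-related organelles, measured 107, 103 and 103 CPM against 71.7, 73.2 and 67.8 CPM (log2 change 0.55, SE 0.056, adjusted p = 0.0438). SAE1, a subunit of the enzyme that activates SUMO, was lower, at 125, 137 and 135 CPM against 191, 188 and 194 CPM (log2 change -0.53, SE 0.055, adjusted p = 0.0453). In all 5 the siRNA and control libraries are separate by a wide margin relative to the spread within either group. The test that chose these genes measures just that, so the separation adds no further evidence.

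**Figure D2:**
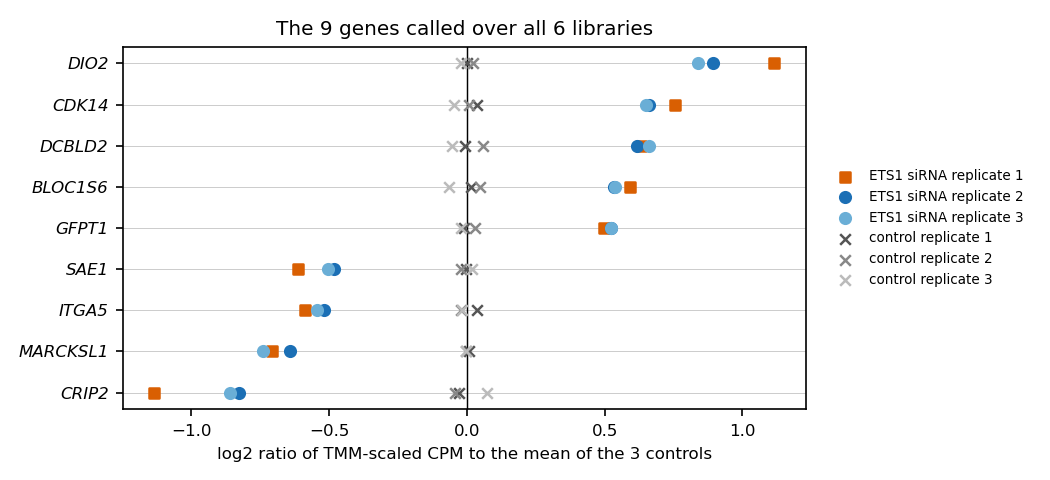
Log2 ratio of each library to the mean of the 3 controls (x axis) for the 9 genes called over all 6 libraries (rows); squares are ETS1 siRNA replicate 1, circles replicates 2 and 3, crosses the controls. The 5 genes that rose and the 4 that fell show no overlap between siRNA and control libraries, and replicate 1 lies clearly farther out than replicates 2 and 3 for CRIP2 and DIO2.

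With the correction for GC content and length, 38 of 18990 genes (0.200%) were called over the 6 libraries, 16 higher and 22 lower. CDK14, DIO2, DCBLD2, CRIP2, ITGA5 and SAE1 were among them. GFPT1 (log2 change 0.34, adjusted p = 0.122), MARCKSL1 (log2 change -0.50, adjusted p = 0.0919) and BLOC1S6 (log2 change 0.41, adjusted p = 0.0547) then missed the threshold.

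Without replicate 1, many more genes passed, almost all by small amounts. Of 20237 genes tested, 4649 were called (23.0%), 2016 higher (9.96%) and 2633 lower (13.0%). The median size of a called change was 0.192 on the log2 scale among those that rose and 0.184 among those that fell, and 32 rose and 20 fell by 2-fold or more. Replicates 2 and 3 are close to each other, and the biological coefficient of variation was 0.0262 in this fit against 0.107 with replicate 1. Without replicate 2 as well 2506 were called, and without replicate 3 instead 3045. Scaling by library size alone gave another split, 2819 higher and 1863 lower. Genes that rose had a median GC content of 40.9% and those that fell one of 56.2%, against 48.2% over all genes tested. Their median levels were 49.1 and 55.3 CPM, against 10.7 CPM over all genes tested. Of them 89.1% and 94.5% were protein-coding, against 70.5%. Shares over all genes, given beside the lists below, are matched neither for level nor for gene type. They belong to the fit without replicate 1 alone. Where a further library is left out below, fewer of all genes passed too, so those counts cannot be set against these shares. After the GC and length correction 4006 of 19622 genes were called (20.4%), 1667 higher (8.50%) and 2339 lower (11.9%). Of the 2016 that rose 1248 rose in this fit as well (61.9% of the first list, 74.9% of the second), and of the 2633 that fell 1647 did (62.6% and 70.4%). From here on, rose and fell refer to the fit without replicate 1, whose values are given with the level in all 6 libraries.

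The 15 highest and 15 lowest genes by fold, taken from called genes that averaged 10 CPM or more and whose groups did not overlap over the 6 libraries, are described by role below. Replicate 1 lies on the same side of the controls as its partners in these 30 because genes with overlap were left out. All 33 genes named here or among the 9 above passed with the GC and length correction without replicate 1, and 12 of them did so with all 6 libraries. Reads were counted without regard to strand, and 12 of the 33 overlap an annotated gene on the opposite strand (ADGRE5, CYP1B1, DCBLD2, DIO2, FAM217B, HABP4, ID2, ITGA5, MESD, PAK6, TPM4 and ZNF273), while 7 overlap one on the same strand (ARL2, ARL6IP1, BLOC1S6, CDK14, CYP1B1, MESD and PAK6). Values of these genes are uncertain for that reason.

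**Figure D3:**
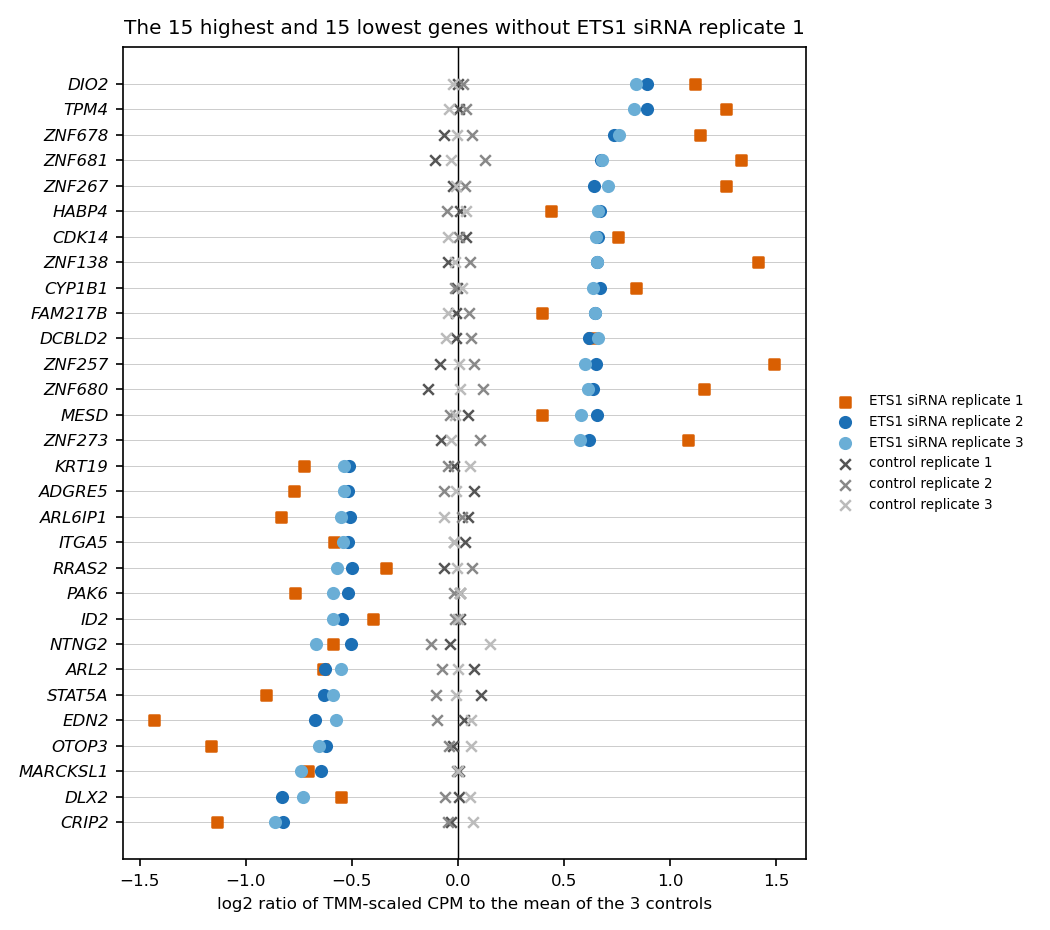
Log2 ratio of each library to the mean of the 3 controls (x axis) for the 15 highest and 15 lowest genes of the fit without ETS1 siRNA replicate 1 (rows); squares are replicate 1, circles replicates 2 and 3, crosses the controls. Replicates 2 and 3 nearly coincide, and replicate 1, on their side of the controls by the way the genes were chosen, departs from them widely in EDN2 and ZNF257.

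Genes of the actin cytoskeleton moved in both directions. TPM4, a tropomyosin that winds along actin filaments, stood at 397, 306 and 294 CPM in ETS1 siRNA replicates 1 to 3 and at 166, 169.5 and 160.4 CPM in control replicates 1 to 3. Every siRNA library is far above every control, where a lack of overlap was a condition of the choice. Replicate 1 is the highest (log2 change 0.86, SE 0.03, adjusted p = 1.33e-30, without replicate 1). With all 6 libraries its log2 change was 1.01, SE 0.11, adjusted p = 0.0504, which just missed the threshold. Of 52 actin-binding and stress fibre genes tested, 19 fell (36.5%) and 8 rose (15.4%), against 13.0% and 9.96% of all genes, with a median log2 fold change of -0.044 against -0.0042 over all genes. The GC and length correction gave 18 that fell and 5 that rose, and leaving out siRNA replicate 2 as well 16 and 4. ACTG1, the gamma isoform of cytoplasmic actin, fell from 2676, 2628 and 2664 CPM in the controls to 1731, 2214 and 2266 CPM with siRNA (log2 change -0.25, SE 0.026, adjusted p = 2.19e-11). MARCKS, the close relative of MARCKSL1, rose while MARCKSL1 fell, from 316, 321 and 323 CPM to 356, 387 and 376 CPM (log2 change 0.25, SE 0.028, adjusted p = 4.18e-10). The tropomyosin TPM1 (log2 change 0.00, adjusted p = 0.964) did not pass.

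PAK6, RRAS2 and ARL2, a kinase and a pair of small GTPases, were among the 15 lowest genes. PAK6, a serine/threonine kinase activated by small GTPases, stood at 30.7, 36.5 and 34.9 CPM with siRNA and at 52.7, 51.7 and 52.6 CPM in the controls (log2 change -0.56, SE 0.042, adjusted p = 3.45e-16). RRAS2, a RAS family GTPase, stood at 23.3, 20.9 and 19.8 CPM with siRNA and at 28.1, 30.9 and 29.4 CPM in the controls (log2 change -0.54, SE 0.053, adjusted p = 4.66e-12), and its replicate 1 lies nearer the controls than the others. ARL2, a small GTPase that helps tubulin fold, stood at 21.6, 21.7 and 22.9 CPM with siRNA and at 35.3, 31.8 and 33.5 CPM in the controls (log2 change -0.60, SE 0.051, adjusted p = 3.77e-14). Of 26 integrin and focal adhesion genes tested 6 rose (23.1%) and 6 fell (23.1%), against 9.96% and 13.0% of all genes. With the GC and length correction 4 rose and 6 fell, and leaving out siRNA replicate 2 or 3 as well 3 and 4 rose and 3 fell each time. PARVA, an actin-binding partner of the integrin-linked kinase, fell (log2 change -0.35, SE 0.034, adjusted p = 2.69e-12) and stood at 91.9, 80.3 and 83.3 CPM with siRNA and at 103, 106 and 102 CPM in the controls. ITGB5, an integrin beta subunit that pairs with the alpha V chain, rose (log2 change 0.17, SE 0.032, adjusted p = 3.65e-05), but its replicate 1 does not share the rise: it stood at 94.0, 125 and 130.4 CPM with siRNA and at 111, 112 and 115 CPM in the controls.

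ZNF genes, most of which encode KRAB zinc finger repressors of transposable elements, made up 7 of the 15 highest genes. ZNF678 stood at 96.7, 73.0 and 74.3 CPM in ETS1 siRNA replicates 1 to 3 and at 41.9, 46.0 and 43.7 CPM in control replicates 1 to 3 (log2 change 0.74, SE 0.039, adjusted p = 2.67e-22). ZNF681 stood at 83.0, 52.5 and 52.6 CPM with siRNA and at 30.5, 36.0 and 32.2 CPM in the controls (log2 change 0.67, SE 0.047, adjusted p = 2.08e-14), and ZNF138 at 68.4, 40.4 and 40.4 CPM with siRNA and at 24.8, 26.7 and 25.4 CPM in the controls (log2 change 0.65, SE 0.046, adjusted p = 4.88e-17). In both, replicate 1 was far above replicates 2 and 3. The other 4 were ZNF267 (log2 change 0.67), ZNF257 (log2 change 0.62), ZNF680 (log2 change 0.62) and ZNF273 (log2 change 0.59). In all 7 replicate 1 exceeded the mean of replicates 2 and 3 by 0.39 to 0.854 on the log2 scale, and with all 6 libraries their adjusted p ran from 0.0738 to 0.152. Many of these genes are close copies of one another, and counts of such genes are uncertain where reads match more than one.

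Of 491 ZNF genes tested, 96 rose (19.6%) and 42 fell (8.55%), against 9.96% and 13.0% of all genes, with a median log2 fold change of 0.036. The list medians per library were 0.18, 0.042 and 0.041 in the siRNA libraries and -0.0017, 0.0071 and -0.0058 in the controls, so replicates 2 and 3 were alike and replicate 1 higher. On chromosome 19, the home of most of this family, 47 of 247 rose and 10 fell, and on chromosome 7 11 of 33 rose and 7 fell. The median GC content of the ZNF genes was 42.9%, below that of all genes. With the GC and length correction 70 rose and 32 fell and the median was 0.01. Leaving out siRNA replicate 2 as well gave 61 that rose and 24 that fell, and replicate 3 instead 76 and 25.

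A common form of the ETS site stands at the starts of BLOC1S6 and of 5 of these 7 ZNF genes, and the stretches are printed to show the letters that were counted. The windows of ZNF678 and ZNF273, which also rose, hold no match. The letters CCGGAAG were searched on both strands in the most upstream RefSeq window of each gene, from 250 bases before to 50 after its start (GRCh38.p14). Other annotated starts of a gene were not searched. The capitals mark the match, which in each case lies on the strand opposite the gene and so reads CTTCCGG. The stretches are on the strand of the gene, chr15:45587063-45587122 (plus) for BLOC1S6, chr19:23758892-23758951 (minus) for ZNF681, chr7:64794393-64794422 (plus) for ZNF138, chr19:22052454-22052483 (plus) for ZNF257, chr16:31873762-31873791 (plus) for ZNF267 and chr7:64563077-64563106 (minus) for ZNF680.
BLOC1S6: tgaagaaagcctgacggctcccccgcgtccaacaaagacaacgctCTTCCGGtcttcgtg
ZNF681: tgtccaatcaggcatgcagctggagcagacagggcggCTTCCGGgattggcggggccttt
ZNF138: ggacatgacgtCTTCCGGgaggcggcgggg
ZNF257: cggacagggtggCTTCCGGgtttggcgggt
ZNF267: agcaggggcggCTTCCGGgatttggcgggg
ZNF680: ggacaggacggCTTCCGGgatttggcgggg

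The motif was found at nearly the same share of ZNF genes that rose and that fell. CCGGAAG stood in 46.9% of the 81 ZNF genes that rose and have a window, in 47.1% of the 34 that fell and in 36.8% of the 291 not called. Over all genes it stood in 16% of the 1542 windows of genes that rose, 21.9% of the 2033 of genes that fell and 17.4% of the 12656 tested. Among all RefSeq genes it stood in 10.6% of the 27305 most upstream windows. Of the 33 named genes 28 have a window and 6 hold CCGGAAG. The second form searched, CAGGAAG, was found in 1 of them, MESD, and in 10.4%, 12.2% and 11.8% of the windows of genes that rose, fell and were tested. A match describes letters only and says nothing of binding in these cells.

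ETS factors other than ETS1 and genes that others have described as ETS1 targets were read next. Of 24 ETS family genes tested 5 rose (20.8%) and 4 fell (16.7%), against 9.96% and 13.0% of all genes. The GC and length correction gave 7 that rose and 5 that fell, and leaving out siRNA replicate 2 as well 3 and 3. ELK4, which works with serum response factor at immediate early genes, had the clearest rise, from 172, 181 and 166 CPM to 239, 248 and 238 CPM (log2 change 0.49, SE 0.031, adjusted p = 2.52e-17). All 3 siRNA libraries agree, and with all 6 libraries ELK4 missed the threshold narrowly (log2 change 0.48, SE 0.054, adjusted p = 0.0504). ETV1, a target of gene fusions in prostate cancer, rose (log2 change 0.23, adjusted p = 7.13e-06), while SPDEF, an ETS factor of luminal epithelium (log2 change -0.24, adjusted p = 2.12e-07), and the repressor ERF (log2 change -0.25, adjusted p = 3.62e-06) fell. With the GC and length correction the log2 changes of ETV1, SPDEF and ERF were smaller, at 0.14, -0.11 and -0.13. ETS2, the nearest relative of ETS1, stood at 18.9, 16.02 and 17.3 CPM with siRNA and at 13.9, 13.4 and 14.3 CPM in the controls (log2 change 0.25, SE 0.064, adjusted p = 0.00227). Of 20 reported ETS1 targets tested 6 fell (30%) and 2 rose (10%) (7 and 2 with the GC and length correction), and ITGA5, described above, is among those that fell. The list medians per library were -0.0037, -0.045 and -0.097 with siRNA and 0.0059, -0.022 and 0.015 in the controls, so replicate 1 lay among the controls. NRP1, a receptor for semaphorins and VEGF, fell (log2 change -0.18, SE 0.035, adjusted p = 6.37e-05), as did the AP-1 subunit JUNB (log2 change -0.25, SE 0.038, adjusted p = 5.28e-07). The protease gene MMP9 lay at 0.517, 0.749 and 0.405 CPM against 0.436, 0.305 and 0.435 CPM, too low to test with any precision (log2 change 0.60, adjusted p = 0.192).

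Among ERK feedback and immediate early genes more rose than fell. Of 35 tested 8 rose (22.9%) and 3 fell (8.57%), against 9.96% and 13.0% of all genes, with a median of 0.066, and with the GC and length correction 11 rose and 2 fell. The number that rose was 3 without siRNA replicate 2 as well, 4 without siRNA replicate 3 and 5 without control replicate 2. FOS, the immediate early subunit of AP-1, stood at 9.40, 10.0 and 10.4 CPM with siRNA and at 7.44, 8.17 and 7.63 CPM in the controls (log2 change 0.39, SE 0.082, adjusted p = 0.000172). EGR1, a zinc finger factor induced by ERK, stood at 49.1, 36.1 and 36.7 CPM with siRNA and at 30.6, 31.5 and 33.0 CPM in the controls, highest in replicate 1 (log2 change 0.19, SE 0.046, adjusted p = 0.00124). SPRED1, an inhibitor of RAF activation, rose (log2 change 0.26, adjusted p = 1.48e-05), and the ERK phosphatase DUSP2 fell (log2 change -0.27, adjusted p = 7.8e-07). In DUSP2 replicate 1 stands far from the rest: it measured 19.3, 45.8 and 48.0 CPM against 57.8, 52.9 and 57.3 CPM. The feedback genes DUSP6 (log2 change 0.12, adjusted p = 0.435) and SPRY4 (log2 change 0.07, adjusted p = 0.657) did not pass.

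Of 27 genes of the RB family, E2F factors and G1 kinases tested, 7 rose (25.9%) and 7 fell (25.9%), against 9.96% and 13.0% of all genes. The shares over all genes are not matched to this list for level, and they are not those of the fits with a further library left out. The split was 7 and 4 with the GC and length correction. RBL1, the pocket protein p107, stood at 53.1, 44.9 and 43.4 CPM in ETS1 siRNA replicates 1 to 3 and at 33.2, 34.4 and 32.5 CPM in control replicates 1 to 3. The groups do not overlap, and it rose (log2 change 0.40, SE 0.044, adjusted p = 9.24e-11, or 0.33 with the GC and length correction). CDKN1A, the kinase inhibitor p21, stood at 172, 216 and 210.5 CPM with siRNA and at 279.5, 270.4 and 286 CPM in the controls (log2 change -0.39, SE 0.03, adjusted p = 5.64e-16). CCND1, cyclin D1, stood at 2664, 2711 and 2745 CPM with siRNA and at 3250, 3165 and 3175 CPM in the controls, a small fall seen alike in all 3 siRNA libraries (log2 change -0.24, SE 0.026, adjusted p = 1.65e-10). E2F4, a mainly repressive E2F factor, fell (log2 change -0.21, SE 0.036, adjusted p = 3.89e-06), whereas RBL2, the third pocket protein, did not pass (log2 change 0.06, adjusted p = 0.132). Scaling by library size alone gave 14 higher and 5 lower in this list. Leaving out siRNA replicate 2 as well gave 1 that rose and 3 that fell, and replicate 3 instead 4 and 6.

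Components of mitochondria, translation and the secretory route were called lower far more often than higher. Of 72 mitochondrial ribosomal protein genes tested 25 fell (34.7%) and 2 rose (2.78%), and of 42 genes of the tricarboxylic acid cycle and mitochondrial import 15 fell (35.7%) and 0 rose (0%). These shares stand against 13.0% lower and 9.96% higher over all genes. With the GC and length correction 31 and 16 fell in these lists, and 2 and 0 rose. IDH3B, a subunit of the isocitrate dehydrogenase of the cycle, stood at 88.9, 104 and 103 CPM with siRNA and at 119.9, 122 and 124 CPM in the controls (log2 change -0.25, SE 0.032, adjusted p = 1.72e-08). TOMM70, a receptor of the outer membrane import pore, stood at 238, 247 and 244 CPM with siRNA and at 279.5, 281 and 273 CPM in the controls (log2 change -0.19, SE 0.029, adjusted p = 9.03e-07). MDH2, mitochondrial malate dehydrogenase, fell as well (log2 change -0.22, SE 0.029, adjusted p = 2.03e-08), though replicate 1 at 654 CPM was close to the controls, which measured 660.0, 655 and 702 CPM. The medians of the mitochondrial ribosomal genes per library were -0.29, -0.072 and -0.073 with siRNA and -0.017, -0.0031 and 0.017 in the controls.

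The vacuolar ATPase, the proton pump of lysosomes, had 17 subunit and accessory genes tested. Of these 8 fell (47.1%) and 1 rose (5.88%), against 13.0% and 9.96% of all genes. The GC and length correction gave 10 and 1, and scaling by library size alone 7 and 2. ATP6V1A, its catalytic subunit, stood at 119, 167 and 158 CPM with siRNA and at 195, 205 and 185 CPM in the controls (log2 change -0.26, SE 0.035, adjusted p = 1.14e-06). ATP6AP1, an accessory subunit, stood at 111, 121 and 119.7 CPM with siRNA and at 139.7, 139 and 148 CPM in the controls (log2 change -0.25, SE 0.032, adjusted p = 1.73e-08). The list median was -0.11, and in both genes every siRNA library lies below every control.

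Translation factors followed. Of 44 initiation and elongation factors tested 18 fell (40.9%) and 3 rose (6.82%) (21 and 1 with the GC and length correction), against 13.0% and 9.96% of all genes. EIF4EBP2, which holds back the cap-binding factor, stood at 233, 215 and 212 CPM with siRNA and at 284, 288 and 279.7 CPM in the controls (log2 change -0.42, SE 0.029, adjusted p = 2.52e-17). EIF5A, an elongation factor that carries hypusine, fell from 657, 639.5 and 658 CPM to 415, 529.7 and 532 CPM (log2 change -0.30, SE 0.028, adjusted p = 4.67e-13). Of 42 spliceosomal snRNP protein genes 15 fell (35.7%) and 2 rose (4.76%) (15 and 1 with the correction), with SF3B3 of the branch point complex among them (log2 change -0.14, SE 0.028, adjusted p = 0.000144). Of 42 genes of COPI and COPII coats and the translocon 14 fell (33.3%) and 2 rose (4.76%), and 23 fell and 1 rose with the GC and length correction. SRPRA, the receptor that docks the signal recognition particle, stood at 311, 276 and 279 CPM with siRNA and at 336, 329.9 and 337 CPM in the controls (log2 change -0.28, SE 0.029, adjusted p = 2.11e-11). Scaling by library size alone lowered several of these counts, to 14 mitochondrial ribosomal, 11 translation and 8 snRNP genes that fell. In that order 4, 8 and 2 rose, so the translation factors were then much less one-sided. Over all genes that scaling called 9.21% lower and 13.9% higher, and the medians of the 3 lists stayed below 0. Without siRNA replicate 2 as well, 12 mitochondrial ribosomal, 8 tricarboxylic acid cycle and import, 11 translation, 5 snRNP and 6 coat genes fell. Without siRNA replicate 3 instead, these were 14, 12, 12, 9 and 12.

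**Figure D4:**
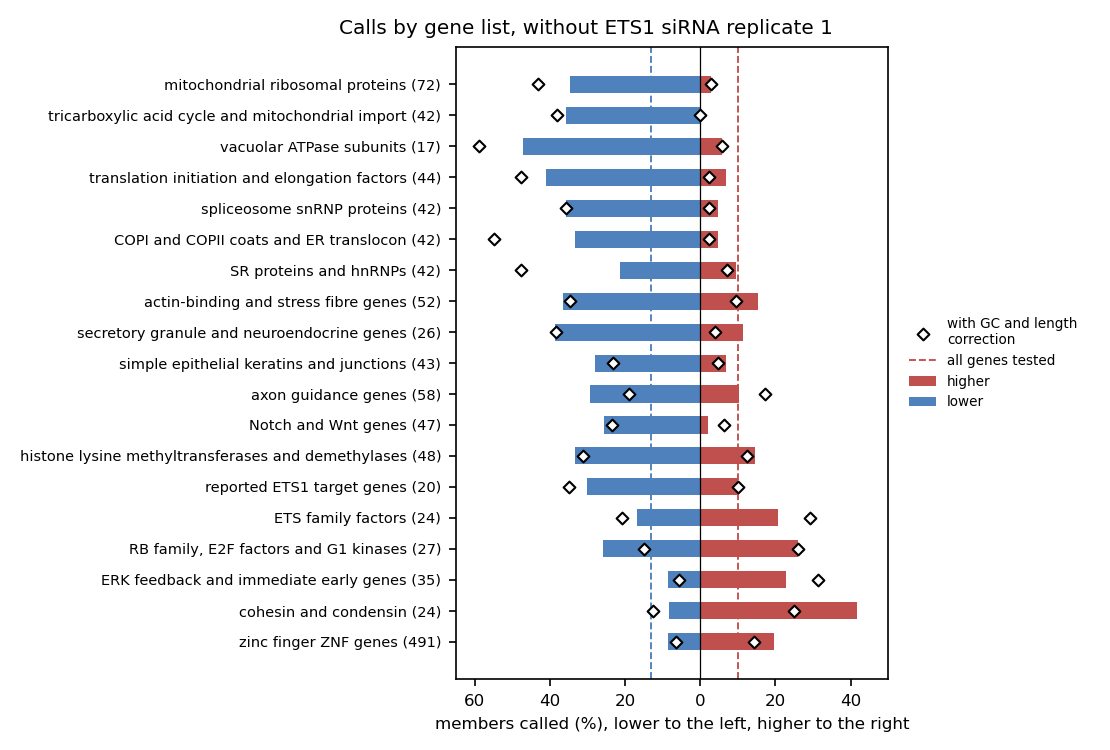
Share of the tested members of each gene list (rows, number tested in brackets) that were called lower (bars to the left) or higher (bars to the right) without ETS1 siRNA replicate 1, in percent; dashed lines give the shares over all genes tested and diamonds the shares with the GC and length correction. Lower calls stand beyond the dashed line at 13.0% in every list shown except ERK feedback, cohesin and condensin, and ZNF genes. Higher calls stand beyond the line at 9.96% in these exceptions and in the RB, ETS family, actin, histone and secretory lists. They barely pass it in the axon guidance and reported ETS1 target lists.

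Several epithelial genes fell. KRT19, a keratin of simple epithelium, stood at 268, 309.9 and 306 CPM in ETS1 siRNA replicates 1 to 3. Control replicates 1 to 3 had 438, 429.5 and 461 CPM (log2 change -0.53, SE 0.03, adjusted p = 5.15e-21). CLDN4, a tight junction claudin, stood at 153, 251 and 266 CPM with siRNA and at 356, 347 and 375 CPM in the controls (log2 change -0.49, SE 0.032, adjusted p = 2.22e-15), and KRT8, the luminal keratin, at 403, 492 and 501 CPM with siRNA and at 582, 569 and 597 CPM in the controls (log2 change -0.24, SE 0.028, adjusted p = 1.12e-09). In both, replicate 1 is the lowest library. Of 43 genes of simple epithelial keratins and junctions tested 12 fell (27.9%) and 3 rose (6.98%), against 13.0% and 9.96% of all genes. The correction gave 10 and 2, scaling by library size alone 8 and 5, and leaving out siRNA replicate 2 as well 7 and 2. The median of that list was -0.023, and 0.0092 with scaling by library size alone.

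Genes known to be induced by androgen moved in both directions. Of 23 tested 6 rose (26.1%) and 7 fell (30.4%) (5 and 8 with the GC and length correction), against 9.96% and 13.0% of all genes. KLK4, an androgen-induced kallikrein, stood at 152, 142 and 142 CPM with siRNA and at 192, 186 and 201 CPM in the controls (log2 change -0.45, SE 0.032, adjusted p = 2.65e-17), and TMPRSS2, the androgen-driven partner of ERG fusions, at 7.63, 10.8 and 11.8 CPM with siRNA and at 15.8, 14.9 and 14.7 CPM in the controls (log2 change -0.43, SE 0.07, adjusted p = 2.87e-06). GUCY1A1, a soluble guanylate cyclase subunit, rose (log2 change 0.39, adjusted p = 3.23e-09), as did the fatty acid ligase ACSL3 (log2 change 0.24, adjusted p = 4.52e-09). KLK3, the prostate-specific antigen gene, did not pass (log2 change 0.05, adjusted p = 0.601).

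Transcription factors and signalling genes of development were among the largest falls. DLX2, a homeobox factor, stood at 13.2, 10.9 and 11.7 CPM with siRNA and at 19.4, 18.6 and 20.1 CPM in the controls (log2 change -0.79, SE 0.065, adjusted p = 9.25e-15), and its neighbour and relative DLX1 fell too (log2 change -0.32, SE 0.039, adjusted p = 3.83e-09). ID2, which blocks helix-loop-helix factors and is a BMP target, stood at 150.4, 136 and 132 CPM with siRNA and at 199, 197 and 199 CPM in the controls (log2 change -0.57, SE 0.031, adjusted p = 4.69e-22), and ID1 fell as well (log2 change -0.27, adjusted p = 1.53e-09). STAT5A, a signal transducer of prolactin and cytokine receptors, stood at 6.98, 8.44 and 8.68 CPM with siRNA and at 14.1, 12.2 and 13.0 CPM in the controls (log2 change -0.62, SE 0.078, adjusted p = 7.32e-09). CUX1, a homeobox factor, went the other way and rose from 119.9, 119 and 115 CPM to 183, 149 and 150.4 CPM (log2 change 0.34, SE 0.031, adjusted p = 7.72e-13). Of 52 homeobox genes tested 11 fell (21.2%) and 2 rose (3.85%), against 13.0% and 9.96% of all genes, and 6 fell and 5 rose with the GC and length correction. The homeobox list has a median GC content of 54.0%.

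Of 47 Notch and Wnt genes tested 12 fell (25.5%) and 1 rose (2.13%) (11 and 3 with the GC and length correction), against 13.0% and 9.96% of all genes. BCL9L, a coactivator of beta-catenin, stood at 162, 143 and 144 CPM with siRNA and at 199, 202 and 215 CPM in the controls (log2 change -0.52, SE 0.032, adjusted p = 1.9e-19). LRP5, a Wnt coreceptor, stood at 59.2, 60.7 and 64.6 CPM with siRNA and at 78.3, 77.2 and 83.4 CPM in the controls (log2 change -0.36, SE 0.038, adjusted p = 6.46e-11), and NOTCH1 at 87.0, 85.6 and 86.1 CPM with siRNA and at 97.2, 97.5 and 103 CPM in the controls (log2 change -0.22, SE 0.034, adjusted p = 1.35e-06). In these 3 genes all siRNA libraries lie together below the controls. HES6, a helix-loop-helix factor related to Notch targets, fell (log2 change -0.44, adjusted p = 3.38e-08), and replicate 1 was far lower than the others, at 4.96, 17.1 and 15.6 CPM against 21.1, 22.0 and 22.9 CPM.

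Neuronal and secretory genes were called lower more often than higher. Of 58 axon guidance genes tested 17 fell (29.3%) and 6 rose (10.3%), against 13.0% and 9.96% of all genes, and with the GC and length correction 11 fell and 10 rose. Leaving out siRNA replicate 2 as well gave 8 that fell and 3 that rose, and control replicate 1 instead 10 and 5. NTNG2, a membrane-anchored netrin, stood at 7.89, 8.38 and 7.47 CPM with siRNA and at 11.6, 10.9 and 13.2 CPM in the controls (log2 change -0.59, SE 0.084, adjusted p = 1.64e-07), and EFNA1, an ephrin, at 55.8, 74.1 and 75.2 CPM with siRNA and at 91.8, 89.7 and 91.3 CPM in the controls (log2 change -0.29, SE 0.034, adjusted p = 1.03e-09). Of 26 genes of secretory granules and neuroendocrine cells 10 fell (38.5%) and 3 rose (11.5%) (10 and 1 with the correction). EDN2, an endothelin peptide, stood at 7.33, 12.4 and 13.3 CPM with siRNA and at 20.2, 18.5 and 20.7 CPM in the controls (log2 change -0.64, SE 0.064, adjusted p = 8.29e-12), lowest in replicate 1. SYP, a vesicle membrane protein, stood at 40.0, 54.4 and 54.1 CPM with siRNA and at 66.2, 68.2 and 71.3 CPM in the controls (log2 change -0.35, SE 0.038, adjusted p = 1.34e-10). RAB3A, a GTPase of regulated secretion, stood at 26.2, 15.3 and 15.2 CPM with siRNA and at 22.1, 23.2 and 22.5 CPM in the controls (log2 change -0.57, SE 0.058, adjusted p = 9.49e-12), and its replicate 1 was above the controls where the others were below.

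The remaining genes at the extremes have varied roles. CYP1B1, an oestrogen-oxidising cytochrome, stood at 20.7, 18.4 and 18.0 CPM with siRNA and at 11.5, 11.4 and 11.7 CPM in the controls (log2 change 0.65, SE 0.065, adjusted p = 7.81e-12). MESD, a chaperone for Wnt coreceptors, stood at 52.5, 62.8 and 59.5 CPM with siRNA and at 41.1, 38.8 and 39.5 CPM in the controls (log2 change 0.62, SE 0.04, adjusted p = 2.37e-18), and HABP4, an RNA-binding protein, at 19.2, 22.5 and 22.4 CPM with siRNA and at 14.3, 13.7 and 14.6 CPM in the controls (log2 change 0.66, SE 0.059, adjusted p = 1.92e-13). FAM217B rose as well (log2 change 0.64). ABCC1, a drug efflux pump, rose in replicates 2 and 3 only: it stood at 8.15, 14.8 and 16.2 CPM with siRNA and at 8.48, 7.76 and 7.92 CPM in the controls (log2 change 0.94, SE 0.075, adjusted p = 4.7e-15, and adjusted p = 0.214 with all 6 libraries). ARL6IP1, which shapes tubules of the endoplasmic reticulum, stood at 218, 273 and 265 CPM with siRNA and at 401, 393 and 370.5 CPM in the controls (log2 change -0.53, SE 0.031, adjusted p = 6.45e-19). OTOP3, a proton channel (log2 change -0.65), and ADGRE5, the adhesion receptor CD97 (log2 change -0.53), fell.

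Several genes of cohesin and condensin, the rings that hold and compact chromosomes, rose, and their number was lower after the GC correction. Of 24 tested 10 rose (41.7%) and 2 fell (8.33%), against 9.96% and 13.0% of all genes, with a median of 0.067. With the GC and length correction 6 rose and 3 fell and the median was -0.0056, on the other side of 0. Without siRNA replicate 2 as well 4 rose and 0 fell, and without siRNA replicate 3 instead 6 and 1. The median GC content of the list was 40.5%. SMC4, a condensin core subunit, stood at 394, 259 and 257 CPM with siRNA and at 226, 228 and 212 CPM in the controls (log2 change 0.21, SE 0.03, adjusted p = 2.1e-07), and NCAPD2, another condensin subunit, at 459.7, 466 and 471 CPM with siRNA and at 433, 425 and 425 CPM in the controls (log2 change 0.12, SE 0.028, adjusted p = 0.000432). NCAPD2 is alike in all 3 siRNA libraries, whereas SMC4 is much higher in replicate 1.

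Further lists were read beside the same background of 13.0% lower and 9.96% higher. Of 31 interferon-stimulated and double-stranded RNA sensor genes 6 fell (19.4%) and 0 rose (0%) (5 and 1 with the GC and length correction, 3 and 0 without siRNA replicate 2 or 3 as well), with ISG15, a ubiquitin-like protein induced by interferon, among them (log2 change -0.21, adjusted p = 2.99e-05). Of 48 histone lysine methyltransferases and demethylases 16 fell (33.3%) and 7 rose (14.6%) (15 and 6 with the correction, 10 and 4 without siRNA replicate 2 as well), among them KMT2B (log2 change -0.30, SE 0.035, adjusted p = 9.43e-10), which methylates lysine on histone H3. In the SUMO pathway, to which SAE1 belongs, 6 of 21 rose and 6 fell. With the GC and length correction 3 rose and 8 fell there, and without siRNA replicate 2 as well 2 and 5. In the hexosamine and N-glycosylation list, to which GFPT1 belongs, 7 of 40 rose and 7 fell, or 4 and 10 with the correction and 4 and 4 without siRNA replicate 2 as well. DIO2 belongs to a list of 17 thyroid hormone genes, of which 4 rose and 4 fell (5 and 4 with the correction). Of 9 genes of the cyclin Y and CDK14 group 2 rose and 0 fell, with and without the correction.

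**Figure D5:**
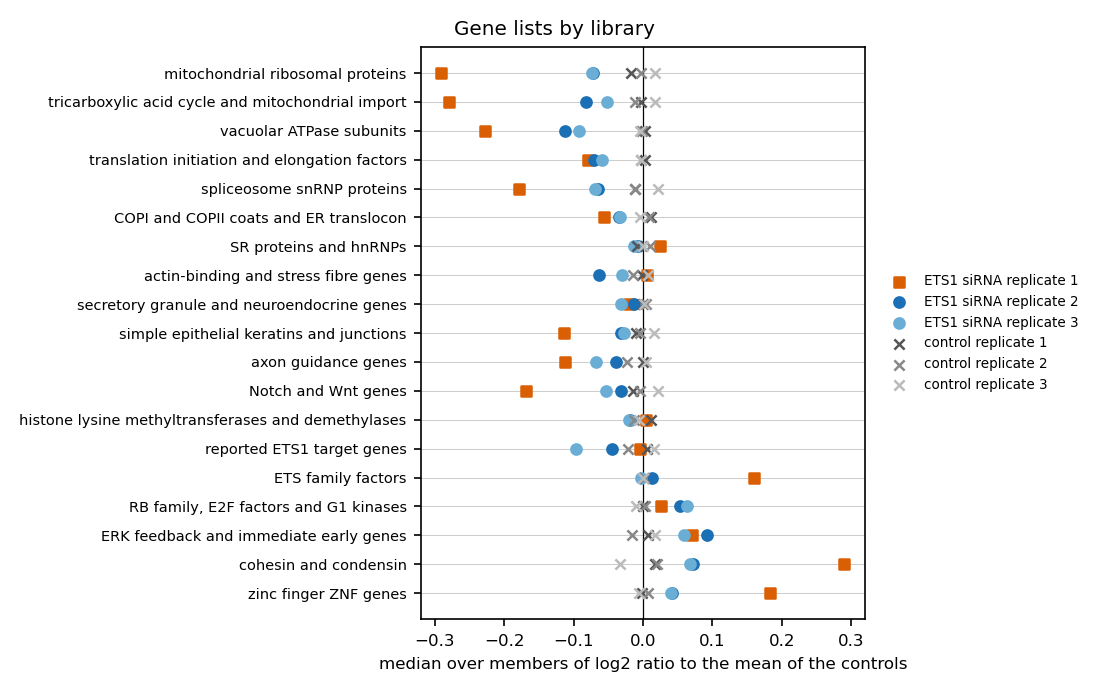
Median over the members of each gene list (rows) of the log2 ratio of a library to the mean of the 3 controls (x axis); squares are ETS1 siRNA replicate 1, circles replicates 2 and 3, crosses the controls. Replicates 2 and 3 lie close together in most lists shown, less so for reported ETS1 targets, while replicate 1 is farthest from 0 in the mitochondrial, vacuolar ATPase, cohesin and condensin and ZNF lists.

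The transcripts in which replicate 1 departed most from its partners were described without a test, since it is 1 library. Among 10272 genes averaging 10 CPM or more, 147 (1.43%) were at least 2-fold lower in replicate 1 than in the mean of replicates 2 and 3, and 11 (0.107%) at least 2-fold higher. The lowest were MRPL12 (3.88, 21.3 and 20.03 CPM in siRNA replicates 1 to 3), TOMM7 (24.6, 99.0 and 109 CPM), RPLP1 (109, 404 and 401 CPM), TMEM160, SNHG8, NME3, TMEM141 and TXNDC12. MRPL12 and RPLP1 are ribosomal proteins of the mitochondrion and the cytosol, and TOMM7 is a small subunit of the mitochondrial import pore. The controls had 23.3, 21.2 and 21.8 CPM of MRPL12 and 108, 117 and 132 CPM of TOMM7, so replicates 2 and 3 resembled the controls there. The highest were INTS3 (49.7, 10.2 and 18.3 CPM), AP2A2 (24.8, 7.75 and 8.65 CPM), NPIPB5, ZNF730, TPP1, ZBED3, CEP20 and CNOT3. In INTS3 and CNOT3 the controls also scattered, with 28.5, 21.3 and 17.4 CPM and 15.7, 29.9 and 31.6 CPM. TPP1, a lysosomal peptidase, stood at 108, 54.6 and 56.2 CPM with siRNA and at 64.5, 65.6 and 59.5 CPM in the controls: replicate 1 was above the controls and replicates 2 and 3 below them.

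The effect of ETS1 siRNA was compared with that of ZNF783 siRNA in 1 fit of all 12 libraries, each against its own controls. The effects differed for 330 of 19594 genes (1.68%), 217 with the ETS1 effect higher (1.11%) and 113 lower (0.577%), and without ETS1 siRNA replicate 1 for 2735 of 20018 (13.7%), 1251 higher (6.25%) and 1484 lower (7.41%). DIO2 differed most among genes averaging 10 CPM or more. In this fit's scaling ETS1 siRNA gave 23.0, 19.5 and 18.9 CPM against 10.5, 10.7 and 10.4 CPM, and ZNF783 siRNA gave 11.6, 11.5 and 11.4 CPM against 19.9, 20.7 and 22.4 CPM in the controls of that experiment. The difference of the log2 effects was 1.82 (SE 0.12, adjusted p = 1.76e-05). The 2 control groups thus stand at different DIO2 levels, and each siRNA group lies near the controls of the other experiment.

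TPM4 (log2 difference 1.14, SE 0.12, adjusted p = 0.000989), THBS1, the matrix protein thrombospondin (log2 difference 0.88, SE 0.061, adjusted p = 2.56e-05), BCHE, butyrylcholinesterase (log2 difference 0.94, SE 0.13, adjusted p = 0.00262), and NES, the filament protein nestin (log2 difference 0.89, SE 0.12, adjusted p = 0.00348), also had higher ETS1 effects. THBS1 stood at 121, 118 and 119 CPM against 89.1, 84.8 and 85.2 CPM in the ETS1 experiment, and at 99.8, 101 and 95.03 CPM against 127, 135 and 131 CPM in the other, opposite in direction. TPM4 measured 265, 269.5 and 275 CPM with ZNF783 siRNA against 293, 297 and 295 CPM, a far smaller change than with ETS1 siRNA. The lowest differences were those of ARL6IP1 (log2 difference -1.07, SE 0.097, adjusted p = 0.000182), STAT5A (log2 difference -0.92, SE 0.14, adjusted p = 0.00506), NRN1, the membrane protein neuritin (log2 difference -0.82, SE 0.13, adjusted p = 0.00612), ZBTB34 (log2 difference -0.80, SE 0.092, adjusted p = 0.00135) and CROT, a peroxisomal acyltransferase (log2 difference -0.75, SE 0.092, adjusted p = 0.00153). ARL6IP1 stood at 224, 279 and 271 CPM against 409, 402 and 380.0 CPM with ETS1 siRNA and at 434, 430.2 and 435 CPM against 322, 304 and 328 CPM with ZNF783 siRNA. SEMA6B (log2 difference 0.96, SE 0.12, adjusted p = 1.91e-08) joined the 5 highest without replicate 1.

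The cells bore luminal markers in all libraries. The 10 luminal markers, KRT8 among them, summed to 3570 to 3680 CPM with siRNA and 3700 to 3720 CPM in the controls, and 5 of the 10 fell and 0 rose. Over all genes tested 13.0% fell and 9.96% rose, shares that are not matched to these markers for level. Of 8 leukocyte markers, whose sum was 1.68 to 2.14 CPM with siRNA and 1.58 to 2.07 CPM in the controls, CD3E was at 0 in all 6 libraries. Of 5 endothelial markers (0.376 to 0.405 CPM with siRNA and 0.338 to 0.436 CPM in the controls) CDH5 was at 0. The 8 fibroblast and smooth muscle markers summed to 61 to 72.1 CPM and 61.4 to 63.6 CPM, most of it LUM, and the 4 basal markers to 130 to 151 CPM and 123 to 131 CPM, most of it DST. The 5 neuroendocrine markers summed to 40.5 to 55.4 CPM with siRNA and 67.9 to 73.0 CPM in the controls, most of it SYP, whose fall is given above. In bulk RNA a smaller share of such cells and less transcript per cell cannot be told apart.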

How the data were processed

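The authors deposited 1 table of raw counts for each experiment. Per the file headers, the authors counted paired-end alignments over exons with featureCounts 2.0.1, a GRCh38 annotation (release 107) and no strand option, although the kit was directional per the labels' protocols. The submitters' processing notes name hg38. For the aligner, a version was not given in the sources used here. Counting floors of 3 counts correspond to 0.0612 to 0.131 CPM.

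The 3 siRNA libraries were tested against their 3 controls with edgeR 4.0.16 in R 4.3.3 (default expression filter, TMM scaling, robust quasi-likelihood test with the group as the only term), with all 6 libraries and without siRNA replicate 1. Benjamini-Hochberg adjustment ran over every gene in the test. The script was tested on simulated data. GC content and length came from GENCODE release 29, and the correction entered each library's smooth trend on both as an offset. Alternatives were other scalings and filters, DESeq2 1.42.0, limma-voom 3.58.1, a fit with the ZNF783 libraries, the replicate number as a block, stricter thresholds and leaving out each library.

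The members and the 50 gene lists were chosen with earlier results of these data known. Besides the called genes, those named are the 15 highest and 15 lowest without replicate 1, up to 4 members of each list by adjusted p with up to 2 more by background role, the 8 highest and 8 lowest ratios of replicate 1 to replicates 2 and 3, and the 5 highest and 5 lowest differences between the siRNAs. Same-numbered siRNA and control libraries did not deviate together (correlations 0.0315, -0.0434 and 0.0642), and the numbers were not taken as pairs. A few genes that this rule names are not reported here.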

Additional observations from a re-analysis of the deposited data

How the results depend on the processing

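With all 6 libraries the count of 9 called genes rested on the settings: it was 253 without an expression filter, 734 with DESeq2, 23 with limma-voom, 4211 with limma-voom and quality weights, 1875 in a fit that included the ZNF783 libraries, 38 with the GC and length correction and 0 at an adjusted p below 0.01. With the replicate number as a block (replicate block) 0 were called, 3139 at an unadjusted p under 0.05 (edgeR), and 0 with the block and the GC and length correction together. Leaving out 1 library gave 0 to 4649. Without siRNA replicate 1 DESeq2 called 2955 and the block 4389 (4222 with the GC and length correction), and leaving out 1 further library gave 2506 to 4631. Where that library was siRNA replicate 2 or 3, the lone siRNA library was assumed to vary like the controls. The difference between the siRNAs was called for 54 genes with the block and for 140 to 2735 with 1 library left out. With 1 of the 6 libraries left out, the log2 change of ZBED3 ran from -0.15 to 0.42, of TPP1 from -0.19 to 0.38, of SRRM2 from -0.11 to 0.28, of AIMP2 from -0.11 to 0.15 and of ARID1A from -0.11 to 0.088, each at its lowest without siRNA replicate 1. ARID1A was at -0.089 with quality weights. Without replicate 1 NME3 turned to 0.093 with the GC and length correction. The cause was not tested. Precision is limited by 3 libraries a group and by the distance of replicate 1 from its partners.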
